A study of Homo sapiens with 16 samples.

Results

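miR-103 and miR-107 are closely related miRNAs that were measured by 3 probes, hsa-miR-103a-3p, hsa-miR-107 and hsa-miR-103a-2-5p, among the 2565 miRNA entries of a human miRNA array. They were selected by their names. OE19 is a cell line of human esophageal adenocarcinoma (EAC), a gland-forming cancer of the lower esophagus, and telmisartan is a blocker of the angiotensin II type 1 receptor that also acts on PPAR-γ, a nuclear receptor of lipid and glucose metabolism. OE19 cells were cultured for 48 h without telmisartan (control, 8 arrays) or with 100 μM telmisartan (8 arrays), with numbers from 1 to 8 in each group. Both groups are the same single line, and the sources used here do not say whether the arrays came from separate cultures, so the tests speak only to the variation among these arrays, which could be technical.

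Mature miRNAs are short RNAs cut from hairpin precursors, and they lower the translation or stability of mRNAs that pair with their seed, bases 2 to 8 from the 5′ end. miR-103a-3p and miR-107 come from the 3′ arms of 3 hairpins that lie inside genes for pantothenate kinases, the enzymes that start coenzyme A synthesis. In mice both miRNAs are known as regulators of insulin sensitivity in liver and fat, with caveolin-1 as a target, and both are known to target the mRNA of Dicer, the enzyme that makes mature miRNAs. They belong to the wider miR-15 and miR-107 group, whose members share the bases AGCAGC near the 5′ end.

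The mature sequences of the members show how alike the first pair is, and miR-103b, which is made from the opposite strand of the miR-103a genes, is given beside them. Capitals mark the seed, and the sequences are those of RefSeq (GRCh38.p14).
hsa-miR-103a-3p: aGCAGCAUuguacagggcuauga
hsa-miR-107: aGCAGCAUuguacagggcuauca
hsa-miR-103a-2-5p: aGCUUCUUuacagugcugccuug
hsa-miR-103b: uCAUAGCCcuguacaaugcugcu
miR-103a-3p and miR-107 are 23 bases long and differ by 1 base, G22C counted from the 5′ end of miR-103a-3p. Of 2370 mature human miRNA names in the sequence table, these 2 are the only ones with the seed GCAGCAU. miR-103b is the exact reverse complement of miR-103a-3p, with 0 differences, and has another seed. miR-103a-2-5p is the opposite arm of 1 of the miR-103a hairpins. It shares its seed only with miR-103a-1-5p, from which it differs by A1G, and the closest stretch of the miR-107 hairpin differs from it by C16U. Whether the probes of such near-identical RNAs share signal was not tested.

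The hairpins are given with the arms measured here in capitals, to show that the 3′ arm is the same in all 3 but for that 1 base.
MIR103A1: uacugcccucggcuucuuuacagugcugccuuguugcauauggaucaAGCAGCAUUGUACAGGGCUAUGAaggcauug
MIR103A2: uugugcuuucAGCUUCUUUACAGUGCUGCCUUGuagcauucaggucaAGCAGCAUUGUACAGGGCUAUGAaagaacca
MIR107: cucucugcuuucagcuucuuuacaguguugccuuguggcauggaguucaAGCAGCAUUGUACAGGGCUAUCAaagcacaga
In GRCh38.p14, MIR103A1 lies at chr5:168560896-168560973 on the minus strand, within PANK3. MIR103A2 lies at chr20:3917494-3917571 on the plus strand, within PANK2, and MIR107 at chr10:89592747-89592827 on the minus strand, within PANK1. Each lies on the strand of its host gene. Because MIR103A1 and MIR103A2 give the same 3′ arm, the miR-103a-3p probe cannot tell them apart, whereas miR-103a-2-5p comes from MIR103A2 alone.

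The level of each spot was an intensity in arbitrary units. The authors subtracted the mean of the blank spots of each array as its background, and a spot counted as detected where its raw intensity was over 2 SD of the blank spots above that mean. Control arrays had 454 to 1621 detected probes and telmisartan arrays 458 to 1885. The background was 22.6 to 33.6 on arrays 1 to 4 and 14.9 to 24.0 on arrays 5 to 8. The labels name no batch. Arrays 1 to 4 and arrays 5 to 8 are also given apart, a split by number that was made with earlier results of these arrays known. All 7 epithelial and intestinal marker miRNAs checked were detected on all 16 arrays, and of 14 markers of other cell types miR-126-3p and miR-9-5p were. The summed background-subtracted intensity of the epithelial markers was 5120 to 9456 on control arrays and 5589 to 9072 on telmisartan arrays, and that of the other markers was 24.1 to 106 and 57.5 to 103.

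miR-103a-3p and miR-107 were detected on all 16 arrays, far above background. The raw intensity of miR-103a-3p lay 261 to 1061 SD of the blank spots above the background, and its background-subtracted intensity was 345 to 907. miR-107 had a background-subtracted intensity of 290 to 758. Both were among the 382 probes with a value in the authors' normalized table, in which the arrays were quantile normalized, that is, given the same set of values in their own order of brightness. A place in that order therefore has the same value on every array. By brightness, miR-103a-3p took places 25 to 47 and miR-107 places 30 to 58 of the 382 probes, which orders spots and not amounts of RNA.

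The level of miR-103a-3p did not differ detectably between control and telmisartan-treated OE19 cells. On control arrays 1 to 8 its authors' normalized intensity was 652, 681, 715, 760, 477, 539, 382 and 564. On telmisartan arrays 1 to 8 it was 760, 715, 715, 921, 681, 498, 614 and 681. The highest value was that of telmisartan array 4, the lowest was that of control array 7, and the groups overlapped widely. The log2 mean was 9.19 ± 0.33 without and 9.43 ± 0.25 with telmisartan (SD, n = 8 each), a difference of 0.24 (standard error 0.14, 95% confidence interval -0.07 to 0.55). This was a fold of 1.18 (95% interval 0.956 to 1.46) with an adjusted p = 0.312 from limma, Benjamini-Hochberg over 382 miRNAs. In the same fit 65 miRNAs, 17.0%, passed an adjusted p of 0.05, with 9.69% higher and 7.33% lower in treated cells.

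miR-107 followed the same pattern. Its authors' normalized intensity on control arrays 1 to 8 was 630, 593, 564, 614, 392, 372, 304 and 477. On telmisartan arrays 1 to 8 it was 652, 520, 564, 681, 520, 415, 498 and 564. As for miR-103a-3p, telmisartan array 4 was highest and control array 7 lowest, and the 3 lowest values were those of control arrays 5, 6 and 7. The log2 mean was 8.90 ± 0.39 without and 9.09 ± 0.23 with telmisartan (SD, n = 8 each), a difference of 0.19 (standard error 0.16, 95% confidence interval -0.14 to 0.52) and a fold of 1.14 (adjusted p = 0.516, limma). In this comparison of treated with control arrays, neither miRNA passed under any of the 14 other settings or with any 1 array left out. The lowest adjusted p of miR-103a-3p among these settings was 0.0787, with the array set as a block (limma). The estimate was above 0 in each, but settings that changed only the test or added a block keep the same estimate by design.

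**Figure D1:**
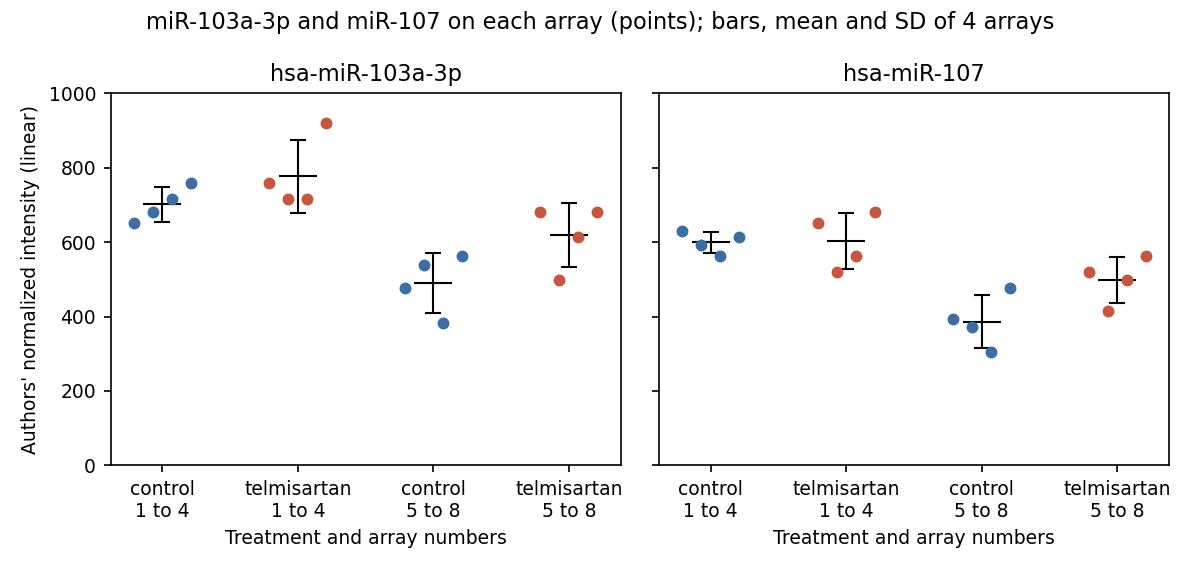
Authors' normalized intensity (linear, vertical axis from 0) of miR-103a-3p (left) and miR-107 (right) on each of the 16 arrays, in 4 groups by treatment and array number. Points are single arrays and bars the mean and SD of 4 arrays. For both miRNAs every control array of 5 to 8 lies below every control array of 1 to 4.

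The arrays of a group differed by number. In control cells all 4 arrays numbered 5 to 8 lay below all 4 numbered 1 to 4 for both miRNAs, which held for 119 of the 382 miRNAs (31.2%). For miR-103a-3p the log2 mean was 9.45 ± 0.09 on the first 4 control arrays and 8.92 ± 0.25 on arrays 5 to 8 (SD, n = 4 each), a difference of -0.53 (standard error 0.13) and a fold of 0.692 (adjusted p = 0.00261, limma). For miR-107 these means were 9.23 ± 0.07 and 8.58 ± 0.27, a difference of -0.65 (standard error 0.13) and a fold of 0.636 (adjusted p = 0.000539, limma). Of all miRNAs 35.1% (134) passed as lower on control arrays 5 to 8, and 141 passed as higher. Differences between the control sets were thus common in both directions. For 252 of the 382 miRNAs the control sets did not overlap, counting either direction. The differences of miR-103a-3p and miR-107 passed whichever array was left out. They depended on the normalization, because quantile normalization over the probes detected on each array turned them to 0.47 for miR-103a-3p and 0.37 for miR-107, neither past the threshold (adjusted p = 0.577 and 0.665, limma). With the authors' global scaling the differences were -0.05 and -0.03 (adjusted p = 0.958 and 0.969), and with median scaling -1.36 and -1.34 (adjusted p = 3.08e-05 and 4.06e-05, limma). The background of the arrays moved with the same numbers, and its part in the difference was not tested.

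In telmisartan-treated cells the sets lay closer on the authors' normalized values. The difference from control cells in this respect did not pass (adjusted p = 0.405 for miR-103a-3p and 0.114 for miR-107, limma interaction). For miR-103a-3p all 4 arrays of 5 to 8 (498 to 681) were below all 4 of 1 to 4 (715 to 921), as for 8.38% of all miRNAs. Its log2 means were 9.60 ± 0.17 and 9.26 ± 0.21 (SD, n = 4 each), a difference of -0.33 (adjusted p = 0.114, limma). For miR-107 the sets overlapped, at 520 to 681 and 415 to 564, with log2 means of 9.23 ± 0.18 and 8.95 ± 0.19 and a difference of -0.28 (adjusted p = 0.175, limma). Neither passed in this comparison, where 10.5% of all miRNAs did. With the authors' global scaling the sets lay farther apart in treated cells (-0.40 for miR-103a-3p and -0.29 for miR-107) than in control cells (-0.05 and -0.03).

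Within arrays 1 to 4 the authors' normalized values of treated and control cells were close, but the direction depended on the scaling. The difference was 0.14 on the log2 scale for miR-103a-3p (95% confidence interval -0.14 to 0.43, adjusted p = 0.426) and 0.0023 for miR-107 (95% confidence interval -0.28 to 0.28, adjusted p = 0.997, limma), in a set in which 41.1% of miRNAs passed. In the same order it was 0.66 and 0.61 with quantile normalization over detected probes, 0.49 and 0.44 with global scaling and -0.39 and -0.44 with median scaling, none past the threshold (adjusted p 0.123 to 0.673, limma). Within arrays 5 to 8 miR-103a-3p was 1.27-fold higher in treated cells (log2 difference 0.34, 95% confidence interval 0.05 to 0.62, adjusted p = 0.0733, limma). miR-107 was 1.30-fold higher there (log2 difference 0.38, 95% confidence interval 0.10 to 0.66) and passed narrowly (adjusted p = 0.0455, limma), in a set in which 26.2% of all miRNAs passed. Its call was lost when any of 12 of the 16 arrays was left out (adjusted p 0.0127 to 0.160 over all 16) and under each of the 5 other normalizations, and fitting these 8 arrays alone gave an adjusted p = 0.104 (limma). miR-103a-3p passed there without control array 8 (adjusted p = 0.0405) or telmisartan array 6 (adjusted p = 0.0208, limma).

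The change within arrays 5 to 8 minus the change within arrays 1 to 4 was 0.20 for miR-103a-3p (95% confidence interval -0.21 to 0.60, adjusted p = 0.405) and 0.38 for miR-107 (95% confidence interval -0.02 to 0.77, adjusted p = 0.114, limma). This interaction passed for 35.3% of all miRNAs. For miR-107 it passed without control array 8 (adjusted p = 0.0387, limma) and for both with median scaling (0.93 and 1.02, adjusted p = 0.0214 and 0.0172, limma). It turned to -0.65 for miR-103a-3p and -0.54 for miR-107 with quantile normalization over detected probes, and to -0.34 and -0.25 with global scaling (adjusted p 0.633 to 0.880, limma).

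On the authors' normalized values the order of mean levels of both miRNAs, from the highest, was telmisartan arrays 1 to 4, control arrays 1 to 4, telmisartan arrays 5 to 8 and control arrays 5 to 8. For miR-107 the top neighbors were level, with a log2 difference of 0.0023 (adjusted p = 0.997, limma). The middle neighbors, telmisartan arrays 5 to 8 against control arrays 1 to 4, differed by -0.19 for miR-103a-3p and -0.27 for miR-107 on the log2 scale (adjusted p = 0.219 and 0.0823, limma), where 61.3% of all miRNAs passed. Of the neighbors in this order, the lowest pair of miR-107 was the exception that passed, as given above. The order depended on the scaling. With median scaling telmisartan arrays 1 to 4 lay below control arrays 1 to 4, by -0.39 for miR-103a-3p and -0.44 for miR-107. With quantile normalization over detected probes control arrays 1 to 4 had the lowest log2 means, 8.88 and 8.64.

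**Figure D2:**
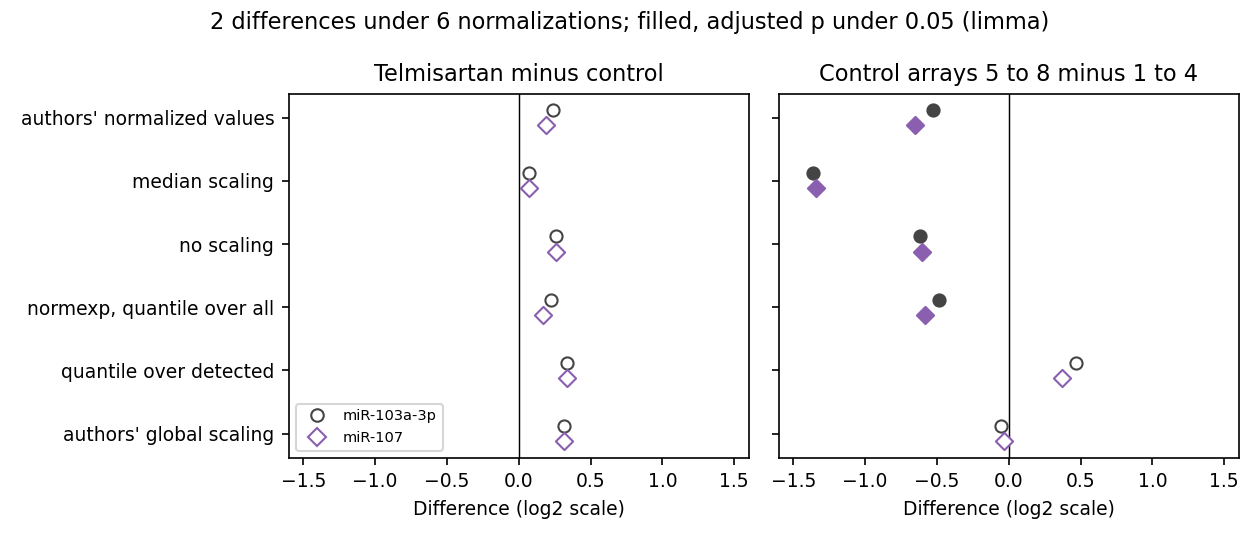
Differences on the log2 scale (horizontal axis) of miR-103a-3p (circles) and miR-107 (diamonds) under 6 normalizations (rows), for telmisartan minus control (left) and for control arrays 5 to 8 minus control arrays 1 to 4 (right). Filled symbols have an adjusted p under 0.05 from limma. The treatment difference stays above 0 and unfilled in each row, and the difference between the control sets runs from -1.36 with median scaling to 0.47 when quantiles were taken over detected probes.

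The balance of the nearly identical pair was then compared within each array, where a shift of the whole array largely cancels. On the authors' normalized values miR-107 minus miR-103a-3p was -0.29 ± 0.14 on control arrays and -0.34 ± 0.09 on telmisartan arrays (log2, SD, n = 8 each). The difference of -0.05 was smaller than either SD (two-sided exact permutation p = 0.408), and on background-subtracted intensities without scaling it was 0.00074 (two-sided exact permutation p = 0.985). It was -0.14 on arrays 1 to 4 alone and 0.040 on arrays 5 to 8 alone (two-sided exact permutation p = 0.143 and 0.686). The probes differ, so this balance does not show which miRNA is more abundant, and only its change between groups can be read. That reading holds for the probe signals, because signal shared between the probes was not tested. Shared signal would make a change of balance look smaller. The small differences therefore do not show that the balance of the RNAs themselves was unchanged.

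Across arrays both rose and fell together. Over all 16 arrays Pearson's r between their log2 values was 0.936 (permutation p = 1e-05, the smallest the permutations can give, adjusted 6e-05) and Spearman's rho 0.854 (permutation p = 1e-04, adjusted 3e-04). Within arrays 5 to 8 of both groups r was 0.945 (permutation p = 0.000694, adjusted 0.00139) and rho 0.922 (permutation p = 0.00268, adjusted 0.00402, n = 8). Within arrays 1 to 4 r was 0.537 (permutation p = 0.163, adjusted 0.196) and rho 0.445 (permutation p = 0.270, adjusted 0.270, n = 8). Without the 2 arrays farthest from the median of miR-103a-3p, r was 0.869 over all arrays, 0.879 within arrays 5 to 8 and 0.546 within arrays 1 to 4. These are 6 correlations of a pair of probes on the same arrays and under the same normalization, and signal shared between the probes was not tested.

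**Figure D3:**
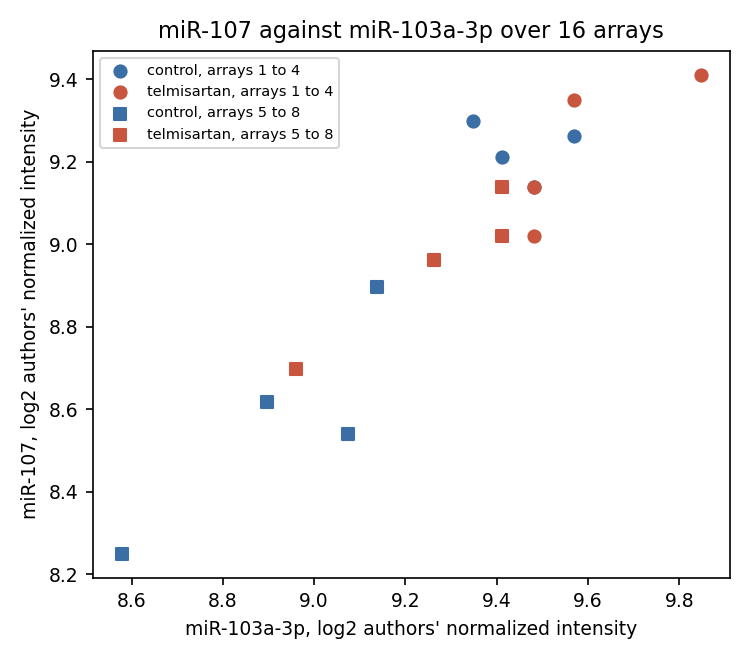
miR-107 (vertical axis) against miR-103a-3p (horizontal axis), both as log2 of the authors' normalized intensity, on 16 arrays marked by treatment (color) and array number (circles 1 to 4, squares 5 to 8). Control array 3 and telmisartan array 3 have the same values and lie on each other. The points lie along a line (r = 0.936), with control arrays 5 to 8 and telmisartan array 6 at its lower end.

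Other miRNAs were as similar in pattern. Ordered by Pearson's r over the 16 arrays, miR-107 was in place 6 of the 381 other miRNAs for miR-103a-3p, and miR-103a-3p in place 7 for miR-107. The miRNAs most like miR-103a-3p were miR-30b-5p (r = 0.959), miR-16-5p (r = 0.943), miR-182-5p (r = 0.941), miR-151b and miR-6516-5p (both r = 0.936). Those most like miR-107 were miR-30b-5p (r = 0.966), miR-342-3p (r = 0.960), miR-27b-3p (r = 0.955), miR-455-3p (r = 0.953) and miR-182-5p (r = 0.944). All of these were lower on control arrays 5 to 8 than on 1 to 4, by 0.48 (miR-6516-5p) to 2.06 (miR-455-3p) on the log2 scale. They were picked by likeness over the same arrays, so this shared drop follows in large part from the choice. Of all miRNAs 35.1% passed as lower there. None of those picked passed for telmisartan (adjusted p 0.134 to 0.710, limma). After the mean of each treatment and set was subtracted, r of the pair was 0.828. By that measure miR-107 was in place 27 for miR-103a-3p, and miR-103a-3p in place 15 for miR-107. The leading miRNAs were then miR-28-5p (r = 0.933), miR-335-5p (r = 0.928), miR-27b-3p (r = 0.916), miR-20b-5p (r = 0.916) and miR-7-5p (r = 0.916) for miR-103a-3p. For miR-107 they were miR-182-5p (r = 0.922), miR-128-3p (r = 0.907), miR-192-5p (r = 0.905), miR-30b-5p (r = 0.885) and miR-126-3p (r = 0.881). Among these leading miRNAs miR-7-5p alone passed for telmisartan, as lower in treated cells (log2 difference -1.06, adjusted p = 0.00106, limma).

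miR-103a-2-5p, the other arm of the MIR103A2 hairpin, was close to background and is not in the normalized table. It was detected on 8 of 8 control arrays and 6 of 8 telmisartan arrays (two-sided Fisher's exact p = 0.467). Its background-subtracted intensity on control arrays 1 to 8 was 2.98, 3.41, 4.67, 4.47, 5.38, 4.58, 4.82 and 4.21. On the telmisartan arrays it was 3.99, 3.55, 4.11, 6.29, 7.12 and 5.12 for arrays 1, 2, 4, 5, 6 and 8. The highest values were those of telmisartan arrays 5 and 6, and the groups overlapped.

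Telmisartan arrays 3 and 7, on which it was not detected, had raw intensities of 35.5 and 25.8 against backgrounds of 33.6 and 24.0, which is 0.919 and 0.695 SD of the blank spots above background. Their blank spots were also the most spread of the 16 arrays, with SDs of 2.17 and 2.63, and the other arrays had SDs of 0.593 to 1.92. The part of this spread in the missed detections was not tested. Where it was detected, the signal of miR-103a-2-5p was 2.19 to 10.3 SD above background.

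With quantile normalization per array over detected probes and undetected values at the floor of 1.24, its log2 mean was 2.12 ± 0.75 without and 2.47 ± 0.96 with telmisartan (SD, n = 8 each). The difference of 0.35 (standard error 0.49, 95% confidence interval -0.66 to 1.36) did not pass (adjusted p = 0.999, limma over 646 miRNAs). In this fit 0 miRNAs passed (0%), and 7 had an unadjusted p under 0.05. On the same values 2 passed with an intensity trend in limma and 0 with the exact Mann-Whitney test. Over the same probes 71 passed with normexp and 23 without scaling and with undetected values left missing. By set, the difference was 0.56 on the arrays numbered 1 to 4 and 0.14 on those numbered 5 to 8 (adjusted p = 0.576 and 0.982, limma). The estimate was 0.76 with undetected values left missing, 0.73 with global scaling, 0.20 without scaling and -0.0091 with normexp, none past the threshold (adjusted p 0.826 to 0.999, limma). It was 0.13 to 0.52 with an array left out. The values are compatible with changes across the 95% confidence interval of -0.66 to 1.36, and the smallest detectable change was not tested.

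The antisense miR-103b, not a member but the nearest entry by position, was detected on 2 control arrays (3 and 6) and 2 telmisartan arrays (4 and 6), at background-subtracted intensities of 1.90 to 4.38. These were arrays with 947, 1460, 1358 and 1885 detected probes in that order. On the other 12 arrays its raw signal lay between -2.11 and 1.41 SD of the blank spots from the background.

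**Figure D4:**
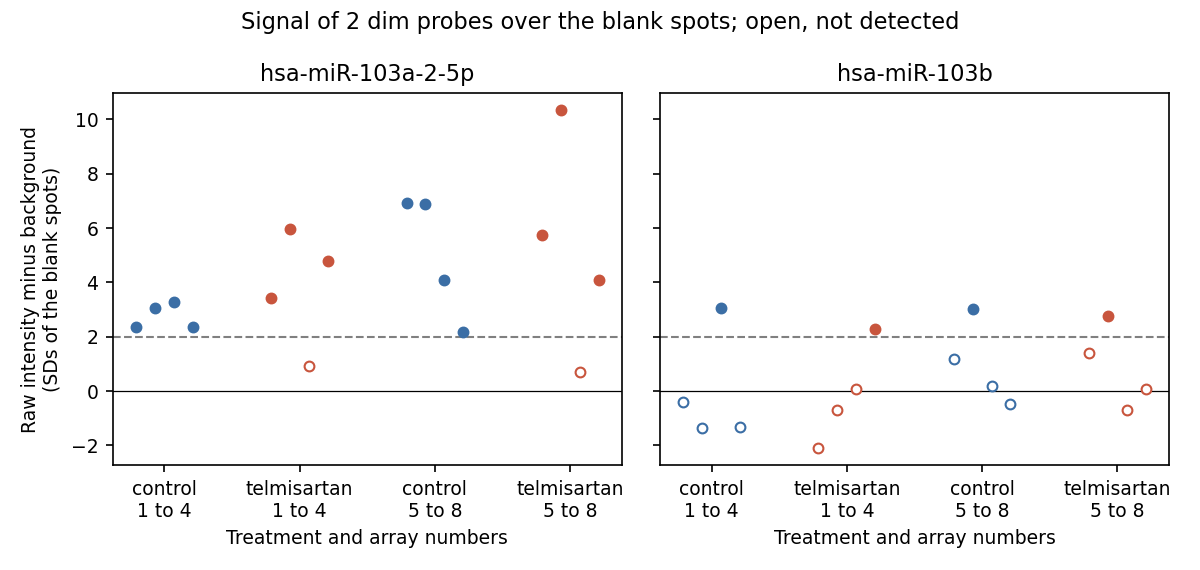
Raw intensity minus background, in SDs of the blank spots of the same array (vertical axis), for miR-103a-2-5p (left) and miR-103b (right) on each of the 16 arrays, by treatment and array number. The dashed line is the detection level of 2 SD, and open points were not detected. miR-103a-2-5p was above the line on 14 arrays and miR-103b on 4.

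The wider miR-15 and miR-107 group shares AGCAGC with the members, in miR-103a-3p and miR-107 from base 1 and in the others from base 2, as the lines of the 3 other miRNAs with a value on all arrays show. Capitals again mark the seed.
hsa-miR-15a-5p: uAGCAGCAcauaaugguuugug
hsa-miR-15b-5p: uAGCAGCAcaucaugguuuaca
hsa-miR-16-5p: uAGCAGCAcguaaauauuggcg
miR-15a, miR-15b and miR-16 are known for restraining cell cycle and survival genes such as BCL2. All 10 miRNAs of the group were on the array and 5 were in the normalized table, miR-103a-3p and miR-107 among them. Of these, 0 of 5 passed for telmisartan with limma, 0 at an unadjusted p under 0.05 and 0 with the exact Mann-Whitney test, where 17.0% of all 382 miRNAs passed with limma. The median log2 difference of the 5 was 0.19, which is the value of miR-107 itself, and that of all 382 miRNAs was -0.01. The differences were 0.04 for miR-15a-5p (adjusted p = 0.965), -0.11 for miR-15b-5p (adjusted p = 0.923) and 0.31 for miR-16-5p (adjusted p = 0.418, limma). All 5, miR-103a-3p and miR-107 included, passed as lower on control arrays 5 to 8 than on control arrays 1 to 4, as did 35.1% of all miRNAs. There miR-15a-5p differed by -1.25, miR-15b-5p by -1.44 and miR-16-5p by -0.77 on the log2 scale (adjusted p = 7.99e-05, 0.000236 and 0.0105, limma). Of the other 5, miR-195-5p was detected on 6 control and 6 telmisartan arrays, miR-424-5p on 6 and 5, miR-497-5p on 4 and 6, miR-503-5p on 2 and 1 and miR-646 on 0 and 2.

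Other miRNAs known for roles in glucose and lipid metabolism were compared as a list of 12, of which 6 were in the normalized table. For telmisartan 2 of the 6 rose and 1 fell, where 9.69% of all miRNAs were higher and 7.33% lower, and the median log2 difference was 0.18 (-0.01 over all miRNAs). miR-29a-3p, a regulator of collagen genes and of insulin signaling, was 1.38-fold higher (adjusted p = 0.000215), and its family member miR-29b-3p was lower, at a fold of 0.699 (adjusted p = 0.0126, limma). miR-378a-3p, which is encoded within PPARGC1B, a coactivator gene of mitochondrial metabolism, was 1.14-fold higher (adjusted p = 0.0275, limma). Its fold had the size of that of miR-107, with a standard error of 0.056 on the log2 scale against 0.16. None of these 3 passed with median scaling, no scaling or quantile normalization over detected probes. miR-26a-5p (1.41-fold, adjusted p = 0.209), miR-29c-3p (1.13-fold, adjusted p = 0.510) and miR-375 (1.09-fold, adjusted p = 0.780, limma) did not pass. Of the rest, miR-33a-5p, a regulator of cholesterol export, was detected on 0 control and 4 telmisartan arrays. miR-122-5p was detected on 1 and 2, miR-143-3p on 1 and 1, miR-223-3p on 0 and 1, and miR-33b-5p and miR-802 on none of the 16. These detection counts were not tested. The number of detected probes varied widely, from 454 to 1621 on control arrays and 458 to 1885 on telmisartan arrays.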

How the data were processed

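Total RNA of OE19 cells was hybridized to 16 single-color miRNA arrays. For each spot the authors deposited a raw intensity, an intensity after subtraction of the blank spots (mean after the highest and lowest 5% were removed) and one after global normalization. The deposited table of normalized intensity holds the 382 of 2565 miRNA probes detected on all arrays. Quantile normalization of their background-subtracted values rebuilt it to a relative difference of 4.88e-10. Groups came from the sample titles.

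The log2 scale was used for limma 3.58.1 under R 4.3.3 (lmFit, eBayes; Benjamini-Hochberg over all miRNAs, threshold 0.05), for treatment and, in a model of treatment by array set, for arrays 1 to 4 and 5 to 8. miR-103a-2-5p was fitted over 646 probes detected on at least 6 arrays of a group, quantile normalized over detected probes, with 10 spots marked not good set missing and 8.57% of values at the floor. Single values were tested by exact permutation. Precision is limited by the number of arrays. The fits were checked on simulated data.

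The members, the lists and the rule for named miRNAs (members, miR-103b, list members that passed, the 5 miRNAs most like each member; the other list members were added) were chosen with earlier results of these data known. Alternatives were median, no and the authors' global scaling, quantile normalization over detected probes, normexp with an offset of 50, other filters, tests and blocks, each set alone and each array left out. All of the 12 names of which sequences were looked up matched RefSeq. Same-numbered control and telmisartan arrays deviated together from their group means, with r over 0.1, in 8 of 8 pairs (r 0.149 to 0.864). Pairing by number was therefore used as an alternative, the replicate block, and the main fits left the arrays unpaired. After set means were subtracted, r was over 0.1 in 5 of 8 pairs (r -0.458 to 0.454). Before that subtraction, 2 of 8 control arrays had their own number as best match. The numbers are thus not established as pairs.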

Additional observations from a re-analysis of the deposited data

How the results depend on the processing

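The estimates of miR-103a-3p and miR-107 for telmisartan (treated against control arrays, either set alone included) stayed above 0 and short of the threshold under all 14 alternatives (0.07 to 0.34 and 0.0023 to 0.38) and with each of 16 arrays left out (0.15 to 0.31 and 0.10 to 0.25). Alternatives that changed only the test or added a block keep the main estimate by design, so its sign could not change there. The median of all miRNAs shifted by 0.18 without scaling, 0.23 with quantile normalization over detected probes and 0.24 with global scaling, and relative to it the members were at 0.08, 0.10 to 0.11 and 0.08. The 65 calls among all miRNAs became 31 with median scaling, 30 without scaling, 0 with quantile normalization over detected probes (also with probes detected on at least 1 array), 1 over probes detected on all 16, 1 with global scaling, 144 on arrays 1 to 4 alone and 51 to 70 with an array left out. With the replicate block (paired by number) 75 passed, with adjusted p = 0.104 for miR-103a-3p and 0.204 for miR-107 (limma), and no call of a member changed. With the array set as a block 97 passed. The adjusted p was then 0.0787 for miR-103a-3p, its lowest among the 14 alternatives, and 0.207 for miR-107 (limma).

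miR-103a-2-5p was at -0.0091 with normexp and at 0.76 with undetected values left missing. The difference of miR-107 minus miR-103a-3p was 0.0044 with quantile normalization over detected probes (all 3 filters), 0.00074 with median, no or global scaling and 0.040 on arrays 5 to 8 alone (-0.14 on arrays 1 to 4 alone). The miR-15 and miR-107 group had 1 call on arrays 1 to 4 alone. The metabolic list had 0 calls with median, no or global scaling and with quantile normalization over detected probes (all 3 filters). With quantile normalization over detected probes the interaction turned to -0.65 for miR-103a-3p and -0.54 for miR-107, with global scaling to -0.34 and -0.25. The control set difference became 0.47 and 0.37 with the former and -0.05 and -0.03 with the latter. Within arrays 1 to 4, median scaling gave -0.39 and -0.44, quantile normalization over detected probes 0.66 and 0.61, global scaling 0.49 and 0.44, no scaling -0.025 for miR-107, and leaving out an array gave -0.058 to 0.072 for miR-107. The causes were not tested.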
